A study of Mus musculus with 89 samples.

Results

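The collagen chain genes were followed across mouse lungs exposed to ozone, to the fungal allergen Aspergillus fumigatus (Af), or to both. Members were all genes whose symbol in the array annotation reads Col, a number, a and a number, and a gene with several probe sets was read from its brightest one, by the mean of all 89 arrays. This gave 42 genes from 68 probe sets, of 17097 genes in all. Of these, 37 passed a filter on low signal and were tested with 15065 genes in total; Col11a2, Col24a1, Col26a1, Col6a5 and Col12a1 did not pass and are named only here. The study compared C57BL/6 mice, BALB/c mice and SP-D-/- mice, which lack surfactant protein D, a collectin secreted into the airspace that binds fungi and allergens. Its title asks how ozone and allergen act on the lung without this protein.

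All mice were males of 7-8 weeks. Ozone was given at 3 ppm for 2 h, controls breathed air for the same time, and lungs were taken 12 h later. Allergic mice were injected with Af into the peritoneum on days 0 and 7, received it into the nose on day 13, and were sampled 24, 96 or 168 h after that challenge, always 12 h after air or ozone. The groups, with the number of arrays for C57BL/6, SP-D-/- and BALB/c in that order, were air (6, 5, 5), ozone (6, 4, 2), air at Af 24 h (4, 6, 5) and at Af 168 h (4, 5, 6), and ozone at Af 96 h (5, 6, 6) and at Af 168 h (6, 4, 4). The sample labels hold no Af 96 h group with air and no Af 24 h group with ozone, so Af 96 h with ozone was compared with ozone alone. RNA came from the left lobe of lungs flushed with buffer and was amplified and hybridized to GeneChip HT Mouse430PM arrays. The labels give only replicate numbers, so p-values measure the spread between these arrays. The SP-D-/- line is compared with C57BL/6, and the labels used here do not describe its breeding or whether mice were pooled.

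Collagens are secreted proteins whose chains wind into a triple helix inside the cell before they are built into the matrix. Fibrillar chains such as Col1a1, Col1a2 and Col3a1 make the tensile fibres of airway, vessel and septum walls, and fibril-associated chains such as Col14a1 and Col16a1 coat those fibres. Collagen IV chains form the sheet of every basement membrane: Col4a1 and Col4a2 are the general pair, while Col4a3, Col4a4 and Col4a5 build a second network found in the alveolar and glomerular basement membranes, and Col4a5 also pairs with Col4a6. Col6a1, Col6a2 and Col6a3 assemble into beaded microfilaments around cells. Fibroblasts, smooth muscle, pericytes, endothelium and epithelium all make some of these chains, so in whole lung RNA fewer cells of a type and less RNA per cell cannot be told apart.

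The promoters of 4 chains are shown. Col3a1, Col6a1 and Col6a2 are 3 of the 6 chains that were lower together in 1 comparison below, and the type I chain Col1a2 was not called in it; of the others, Col1a1 and Col14a1 had no matched promoter entry and Col6a3 is not shown. Each window is the 250 bases before the start of the gene in RefSeq (build GRCm38.p6), read 5′ to 3′ on the strand of the gene, and capitals mark matches on either strand to the motif CCAAT, the motif TATAAA and the motif GGGCGG. Positions are chr1:45311288-45311537 on the plus strand for Col3a1, chr10:76726045-76726294 on the minus strand for Col6a1, chr10:76623631-76623880 on the minus strand for Col6a2 (the more upstream of 2 listed starts) and chr6:4505368-4505617 on the plus strand for Col1a2; none of the windows overlapped another annotated gene.
Col3a1: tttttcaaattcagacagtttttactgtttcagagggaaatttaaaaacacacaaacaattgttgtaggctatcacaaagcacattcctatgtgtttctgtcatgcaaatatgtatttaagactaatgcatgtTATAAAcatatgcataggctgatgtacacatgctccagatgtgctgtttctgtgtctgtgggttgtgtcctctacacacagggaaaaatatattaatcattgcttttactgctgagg
Col6a1: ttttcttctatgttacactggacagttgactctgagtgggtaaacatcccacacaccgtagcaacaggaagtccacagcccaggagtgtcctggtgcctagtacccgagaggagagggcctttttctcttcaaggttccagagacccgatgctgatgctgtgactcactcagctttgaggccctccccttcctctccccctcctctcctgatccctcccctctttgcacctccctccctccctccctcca
Col6a2: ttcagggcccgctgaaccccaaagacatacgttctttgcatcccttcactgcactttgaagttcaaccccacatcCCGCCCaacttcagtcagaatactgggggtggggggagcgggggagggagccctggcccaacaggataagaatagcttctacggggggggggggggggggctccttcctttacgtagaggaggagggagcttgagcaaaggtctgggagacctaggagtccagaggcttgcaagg
Col1a2: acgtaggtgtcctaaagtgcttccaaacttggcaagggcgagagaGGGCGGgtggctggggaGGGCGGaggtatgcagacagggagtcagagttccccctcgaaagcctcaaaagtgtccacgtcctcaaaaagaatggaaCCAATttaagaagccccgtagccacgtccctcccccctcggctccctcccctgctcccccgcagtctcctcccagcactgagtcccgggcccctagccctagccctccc

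The Col3a1 window held TATAAA at -117 from the start, the Col6a2 window held GGGCGG as its reverse complement CCGCCC at -175, the Col1a2 window held CCAAT at -109 and GGGCGG at -205 and -188, and the Col6a1 window held none of the 3 motifs. Over 32851 RefSeq promoters of the same length, 33.8% held CCAAT, 12.4% TATAAA and 32.7% GGGCGG; of 38 collagen promoters in the table, 13, 5 and 22 did. Such a match is a run of letters, not a mapped site.

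The arrays differed in ways that bear on every comparison. Sftpd, the disrupted gene, was between 9.20 and 11.24 on the log2 scale in all but 3 arrays labelled C57BL/6 or BALB/c and at most 7.76 in all but 1 array labelled SP-D-/-. With 1 further array whose strain-linked genes went against its label, 5 arrays stood against their labels: BALB/c Af 24 h air replicates 4 and 5, BALB/c Af 168 h ozone replicate 6, C57BL/6 Af 96 h ozone replicate 1 and SP-D-/- Af 96 h ozone replicate 1. They are called the 5 doubted arrays, and counts are given with and without them. The mean of 18 spiked-in hybridization control probe sets (a measure of how much labelled RNA competed with a constant spike) and the excess of the 3' over the 5' beta-actin probe set (a sign of RNA quality) moved with the groups. In air these were 10.59 and 1.73 on the log2 scale, averaged over strains; at Af 24 h they were 11.24 and 2.68. A fit on 84 arrays with both measures as covariates, called the adjusted fit, is given beside the results of the averaged comparisons, and for single strains as counts. The tissue label was borne out by alveolar type 2 markers, whose mean log2 signal lay between 9.23 and 10.17 in the 18 groups, while the mean of 8 skeletal muscle markers ranged from 4.17 in BALB/c at Af 168 h with air to 7.66 in BALB/c air.

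Across the 18 groups, 27 of the 37 tested chains differed by the moderated F-test of limma (adjusted p under 0.05), against 46.0% of all tested genes. Group membership accounted for a median of 37.2% of the variance of a chain over the arrays and 31.0% of that of all genes. Col4a6, Col6a2, Col4a3, Col1a1 and Col15a1 had the highest shares, 69.7%, 62.4%, 55.9%, 54.8% and 51.4%. The widest spans between group means were those of Col4a5 (3.31 log2 units), Col6a3 (3.15), Col19a1 (3.06), Col6a2 (2.76) and Col1a1 (2.75). Among chains that did not pass were Col2a1 and Col10a1, known from cartilage, and Col17a1, a transmembrane chain of hemidesmosomes.

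**Figure D1:**
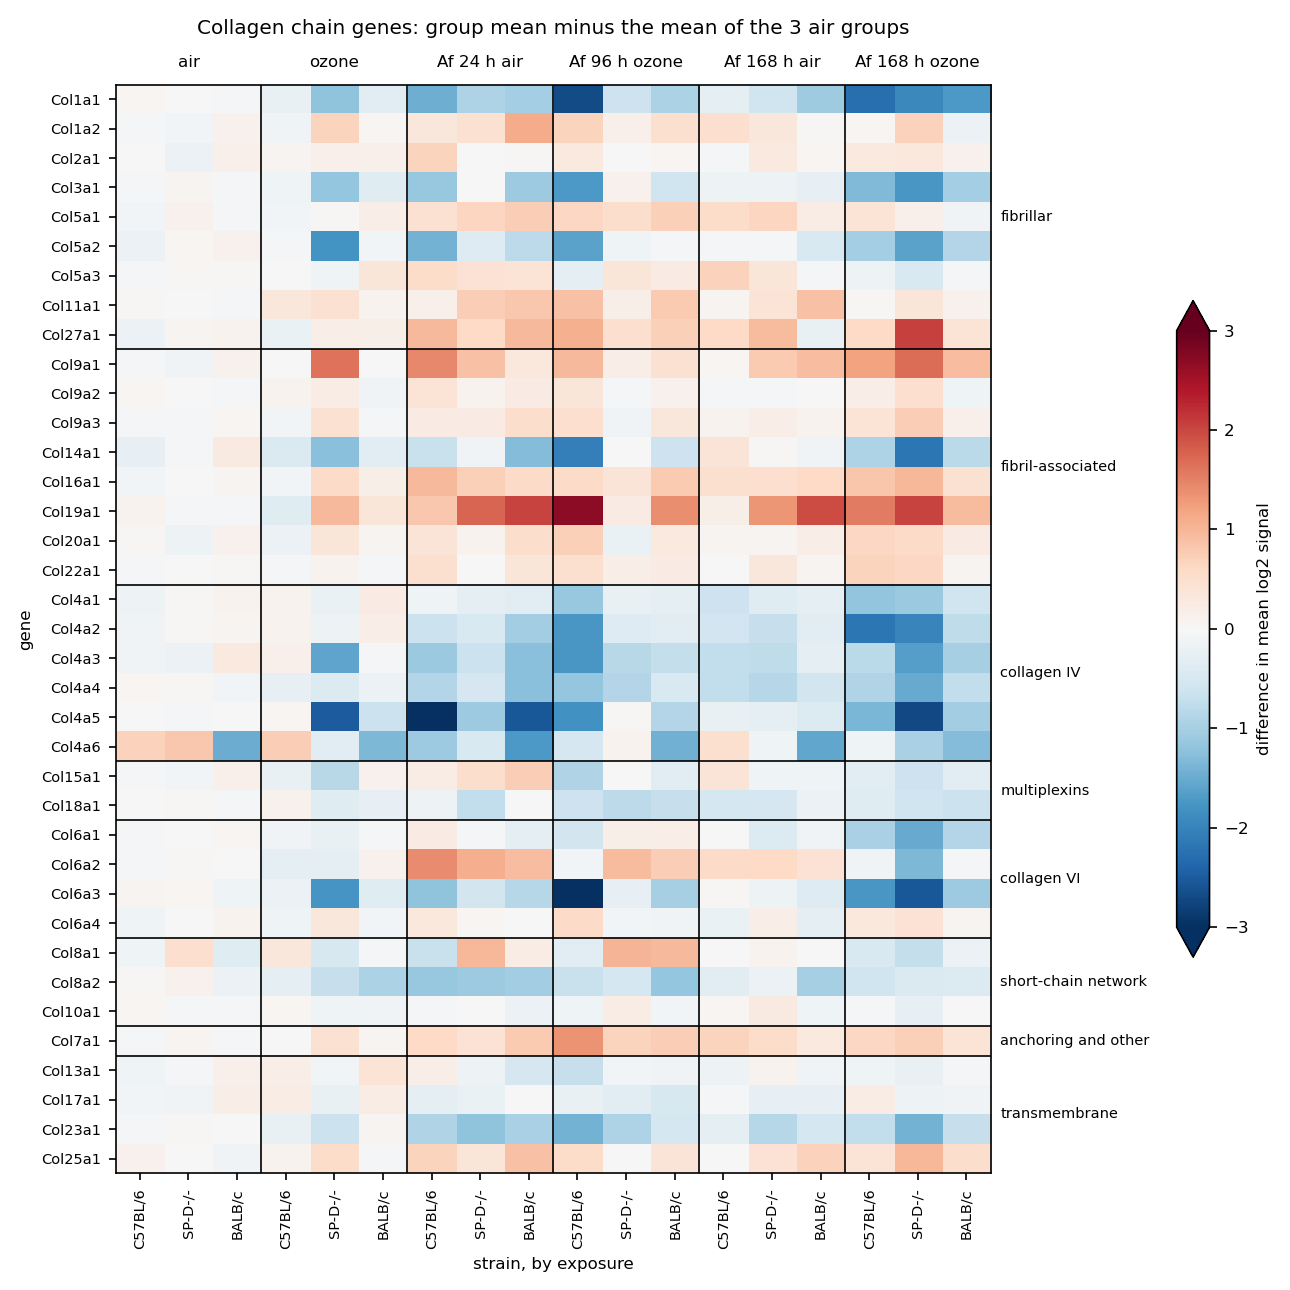
Mean log2 signal of the 37 tested chains in each of the 18 groups minus the mean of the 3 air groups, as colour from blue (lower) to red (higher); columns are strains within exposures and rows are chains by class. Collagen IV rows are mostly blue after Af, Col6a2 is red at Af 24 h in all 3 strains and blue in SP-D-/- at Af 168 h with ozone, and Col4a6 is low in all 6 BALB/c columns.

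At 24 h after Af challenge 4 of 6 collagen IV chains were lower than in air, and the fibrillar chains changed in both directions. Averaged over strains (15 against 16 arrays), 11 chains rose and 9 fell, 54.1% of those tested, in a comparison that called 44.3% of all genes (20.7% higher, 23.5% lower). The median log2 change of the tested chains was 0.12, beside 0.00 for all genes. No collagen IV chain rose. Of 9 tested fibrillar chains 5 rose (Col11a1 among them, at group means under the low-signal filter) and 3 fell. Of 8 fibril-associated chains 3 rose and none fell. Without the doubted arrays 10 chains rose and 9 fell (36% of all genes called), and the adjusted fit called 3 in each direction (12.4% of all genes). Spike and actin measures were 0.64 and 0.95 log2 units higher at Af 24 h than in air; the part that labelled RNA amount or quality had in the chains lost under the adjusted fit was not tested.

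Col6a2, a subunit of collagen VI microfilaments, showed the most separated rise. In C57BL/6 its log2 signal was 8.46 to 8.84 (median 8.76) in 6 air arrays and 9.67, 10.18, 10.34 and 10.51 at Af 24 h. In SP-D-/- it was 8.72, 8.24, 9.13, 9.04 and 8.85 in air and 9.42 to 10.41 (median 9.89) at Af 24 h, and in BALB/c 8.75, 8.52, 8.61, 8.97 and 9.06 against 10.11, 10.28, 9.98, 8.92 and 9.20. All but 1 of the 15 challenged arrays lay above every air array, and the exception (8.92) is a doubted one. The change was 1.15 ± 0.19 (SE; 2.2-fold; adjusted p = 2e-06), and 1.05 (adjusted p = 0.00021) in the adjusted fit. Its partners were not called: Col6a1 changed by -0.02 ± 0.23 (adjusted p = 0.95) and Col6a3 by -0.87 ± 0.38 (adjusted p = 0.055).

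Col4a5 fell by 2.29 ± 0.42 on the log2 scale (4.9-fold; adjusted p = 1.4e-05), with uneven arrays. In air the 16 arrays lay between 7.23 and 8.68 (median 7.84). At Af 24 h C57BL/6 gave 2.95, 7.49, 3.31 and 4.92, SP-D-/- gave 4.17 to 8.44 (median 7.35), and BALB/c gave 6.32, 4.27, 5.75, 2.74 and 7.85. Thus 9 of 15 arrays lay below every air array and the rest within the air range. Within the groups Col4a5 followed the spike measure (r = -0.70 over residuals of 89 arrays, a description of arrays that share labelling), and the adjusted fit gave -1.1 (adjusted p = 0.026).

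Averaged over strains, Col4a3 and Col4a4, the other chains of the second collagen IV network, were lower too, as was Col4a6, which also pairs with Col4a5. Col4a3 fell from a median of 7.78 (7.20 to 8.52) in air to 6.79 (5.44 to 7.80), a change of -1.0 ± 0.21 (adjusted p = 7.4e-05), with 11 of 15 arrays below every air array. Col4a6 changed by -1.09 ± 0.22 (adjusted p = 7.9e-05) and Col4a4 by -0.88 ± 0.20 (adjusted p = 0.00039). In the adjusted fit these 3 no longer passed (adjusted p = 0.16, 0.065 and 0.066), and a second probe set of Col4a4 changed by 0.48 ± 0.16. The general pair Col4a1 and Col4a2 was not called, at -0.23 ± 0.17 and -0.72 ± 0.34 (adjusted p = 0.26 and 0.072). In BALB/c Col4a6 was already under the filter level of 4.45 in air (mean 3.71) and changed by -0.22 ± 0.39 (adjusted p = 0.73). The averaged fall of Col4a6 therefore rests on C57BL/6 and SP-D-/-. At Af 24 h its mean was 4.10 in C57BL/6, also under the filter level, and 4.75 in SP-D-/-, so the size of the fall is limited by low signal.

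Among the fibrillar chains the direction was mixed. Col1a1, the major chain of type I collagen, lay between 9.07 and 9.69 (median 9.43) in air and between 5.69 and 10.55 (median 8.50) at Af 24 h. Below every air array lay 13 of the 15 challenged arrays, and 1, the doubted BALB/c replicate 5, lay above. The change was -1.14 ± 0.28 (adjusted p = 0.0009) and -0.57 (adjusted p = 0.21) in the adjusted fit. Col3a1 changed by -0.74 ± 0.25 (adjusted p = 0.014; 0.055 without the doubted arrays) and Col5a2 by -0.86 ± 0.35 (adjusted p = 0.041), whereas Col1a2 (0.64 ± 0.18), Col5a1 (0.61 ± 0.17), Col27a1 (0.85 ± 0.27), Col5a3 (0.46 ± 0.17) and Col11a1 (0.57 ± 0.24) rose. Col1a2 rests on 1 probe set, which did not follow Col1a1 from array to array (r = 0.03 over residuals from the group means); whether it reads the mature transcript was not tested. The other Col5a1 probe sets gave -0.59 ± 0.26 and 0.19 ± 0.18. Col11a1 lost its call in 15 of 31 fits that left out 1 array and Col5a2 in 11.

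Of the remaining chains, Col8a2, a subunit of the hexagonal networks made by endothelium and cornea, fell from a median of 5.57 (5.16 to 6.20) to 4.54 (4.13 to 5.44). Below every air array lay 14 of 15 arrays; the change was -1.09 ± 0.19 (adjusted p = 4.2e-06) and -0.90 (adjusted p = 0.0045) in the adjusted fit. Col23a1, a transmembrane chain, fell from 6.58 (5.92 to 7.05) to 5.70 (4.10 to 6.47), by 1.03 ± 0.22 (adjusted p = 0.0001; -0.60, adjusted p = 0.036, in the adjusted fit). The fibril-associated chains Col16a1 (0.76 ± 0.19), Col19a1 (1.52 ± 0.51) and Col9a1 (0.88 ± 0.29), the anchoring fibril chain Col7a1 (0.61 ± 0.17) and the multiplexin Col15a1 (0.50 ± 0.16) rose. Col19a1 and Col9a1 had the strongest within-group relation to the spike measure (r = 0.85 and 0.80 over residuals of 89 arrays), and neither passed in the adjusted fit. Col6a2, Col15a1 and Col5a3 rose and Col4a5, Col8a2 and Col23a1 fell in the adjusted fit.

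By strain, C57BL/6 had 3 chains higher and 5 lower at Af 24 h (16.2% of all genes called, 6.4% higher and 9.78% lower), led by Col4a5 (-3.27 ± 0.76, adjusted p = 0.0022), Col4a6 (-1.79, adjusted p = 0.0015), Col1a1 (-1.53 ± 0.50, adjusted p = 0.028) and Col6a2 (1.47 ± 0.34, adjusted p = 0.0023). SP-D-/- had 1 higher and 4 lower (4.71% of all genes, 1.6% higher and 3.11% lower), led by Col23a1 (-1.26, adjusted p = 0.025), Col4a6 (-1.25, adjusted p = 0.033), Col8a2 (-1.21 ± 0.32, adjusted p = 0.012) and Col6a2 (1.06 ± 0.32, adjusted p = 0.036). BALB/c had 2 higher and 5 lower (12.1% of all genes, 3.92% higher and 8.13% lower), led by Col4a5 (-2.54 ± 0.74, adjusted p = 0.016), Col14a1 (-1.58 ± 0.54, adjusted p = 0.042), Col4a3 (-1.55, adjusted p = 0.0023) and Col4a4 (-1.16, adjusted p = 0.022). Of its 5 challenged arrays 2 are doubted. Without the doubted arrays BALB/c had only Col6a2 higher (1.34, adjusted p = 0.027) and Col4a3 lower (-1.33, adjusted p = 0.042), beside 4.51% of all genes, while Col14a1 stood at -0.68 (adjusted p = 0.64), Col4a5 at -2.48 (adjusted p = 0.059) and Col1a2, one of those higher on all arrays, at 0.33 (adjusted p = 0.69). The adjusted fit called 0 chains in BALB/c (2.05% of all genes), 1 in C57BL/6 (Col6a2; 3.33%) and 3 in SP-D-/- (Col6a2 higher, Col8a2 and Col23a1 lower; 4.14%). The test of the difference between strains in this response called 0 chains for SP-D-/- against C57BL/6 (0% of all genes) and 0 for BALB/c against C57BL/6 (0.0133%). Leaving out 1 array moved these counts to between 4 and 13 in C57BL/6, 1 and 5 in SP-D-/- and 1 and 9 in BALB/c.

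**Figure D2:**
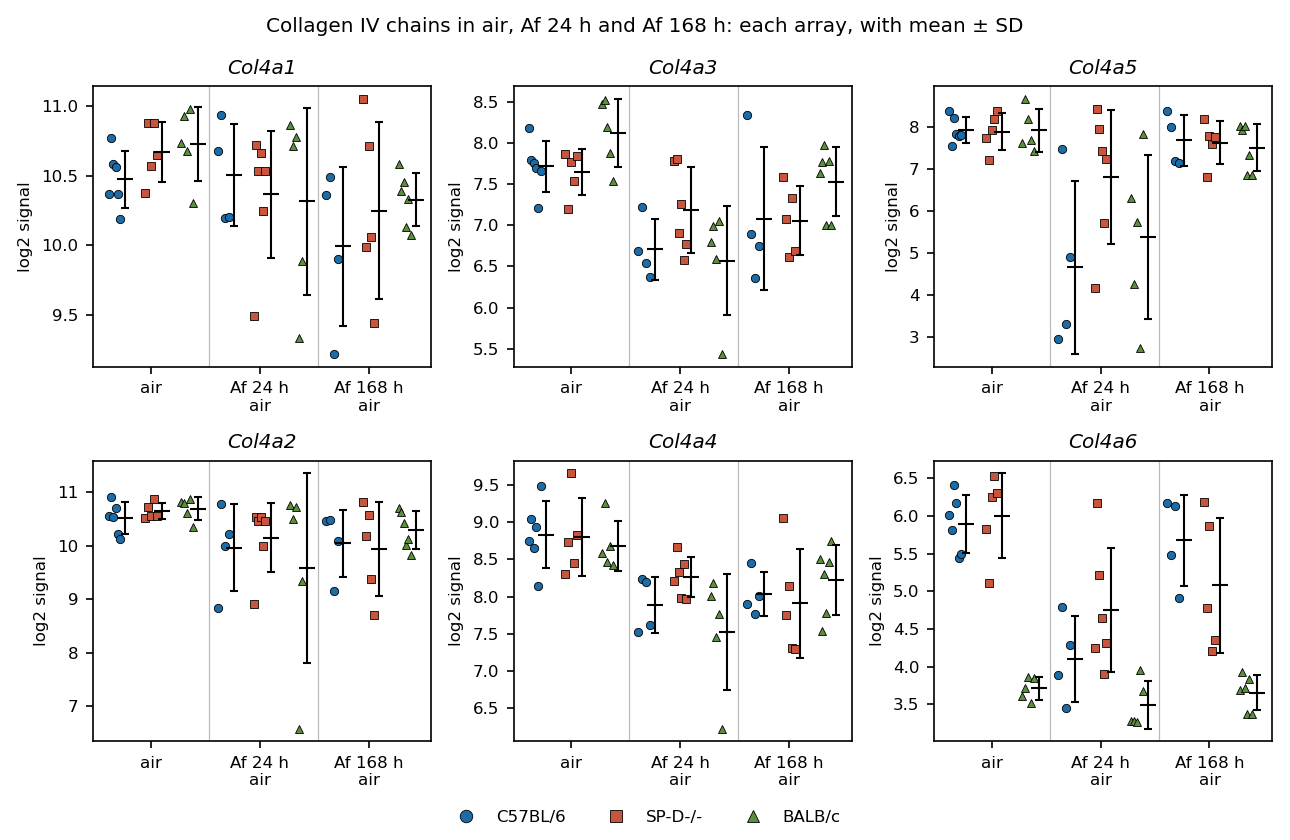
Log2 signal of the 6 collagen IV chains on each array in air, at Af 24 h with air and at Af 168 h with air, by strain, with group mean and SD; each panel has its own axis, which does not start at 0. Col4a5 spreads from 2.74 to 8.44 at Af 24 h against 7.23 to 8.68 in air and is back between 6.81 and 8.39 at Af 168 h.

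At 168 h after challenge fewer chains stood apart from air. Averaged over strains (15 against 16 arrays) 3 rose and 3 fell, in a comparison that called 14% of all genes (6.86% higher, 7.15% lower); the median was 0.03 for the tested chains and 0.06 for all genes. The chains called were Col4a4 (median 8.01 against 8.71; -0.72 ± 0.20, adjusted p = 0.01), Col18a1, the chain that releases endostatin (6.18 against 6.52; -0.40 ± 0.13, adjusted p = 0.029), Col4a3 (-0.60 ± 0.21, adjusted p = 0.036), Col7a1 (0.50 ± 0.17, adjusted p = 0.032), Col5a1 (0.47 ± 0.17, adjusted p = 0.044) and Col6a2 (9.38 against 8.77; 0.54 ± 0.19, adjusted p = 0.048). Col1a1 (-0.64 ± 0.28, adjusted p = 0.12), Col4a1 (-0.43 ± 0.17, adjusted p = 0.07) and Col4a5 (-0.31 ± 0.42, adjusted p = 0.65) were not called, nor were Col1a2, Col3a1, Col4a2, Col4a6, Col6a1 and Col6a3. No chain passed within any single strain (1.35% of all genes called in C57BL/6 and in SP-D-/-, 1.56% in BALB/c), and none in the adjusted fit, where 4.8% of all genes did. When the probe sets of each gene were averaged, 2 chains rose and 2 fell (14.4% of all genes). Of the 6 chains called above, 2 kept their call in that fit. Col4a4 and Col5a1 have other probe sets that did not follow the chosen one from array to array. Leaving out the doubted arrays, 4 rose and 5 fell (16.8% of all genes). The count was 2 without C57BL/6 Af 168 h air replicate 6, and 3 without any of BALB/c air replicates 1, 2 and 3, C57BL/6 air replicates 1 and 4, C57BL/6 Af 168 h air replicate 4, SP-D-/- air replicates 3 and 6, or SP-D-/- Af 168 h air replicate 5; Col6a2 lost its call in 21 of 31 such fits.

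Set directly against each other (15 arrays each), Af 168 h and Af 24 h differed most in Col4a5. Its 15 arrays at 168 h lay between 6.81 and 8.39 (median 7.77), against 2.74 to 8.44 (median 5.75) at 24 h, a change of 1.99 ± 0.43 (adjusted p = 0.0011; 1.72, adjusted p = 2e-05, in the adjusted fit). Col6a2 was lower at 168 h (-0.61 ± 0.20, adjusted p = 0.042) and Col8a2 higher (0.59 ± 0.19, adjusted p = 0.05 after rounding, under the threshold). This comparison called 6.66% of all genes (5.43% higher, 1.23% lower). Col1a1, Col1a2, Col3a1, the other collagen IV chains, Col6a1 and Col6a3 were not called. Both time points share the air groups in the comparisons above. Col8a2 and Col6a2 lost their calls in 19 and 15 of 30 fits that left out 1 array. Only 1 chain was left without BALB/c Af 24 h air replicate 2 or 3, BALB/c Af 168 h air replicate 3 or 5, C57BL/6 Af 24 h air replicate 4, C57BL/6 Af 168 h air replicate 2, or SP-D-/- Af 24 h air replicate 5 or 6. In BALB/c alone (4.36% of all genes called, 1.61% lower) Col1a2 (-1.09, adjusted p = 0.025) and Col15a1 (-0.88, adjusted p = 0.047) were lower at 168 h; without the doubted arrays Col1a2 stood at -0.44 (adjusted p = 0.62) and only Col15a1 was called (-1.23, adjusted p = 0.019; 0.75% of all genes). The adjusted fit called Col15a1 lower (-1.1, adjusted p = 0.019) and Col4a5 higher (2.51, adjusted p = 0.0045) there, beside 1.67% of all genes. The other strains had none (0.186% of all genes in C57BL/6, 1.36% in SP-D-/-).

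Ozone alone called 0 of 37 chains against air (12 against 16 arrays; 0.119% of all genes called by limma, and 3 chains at an unadjusted p under 0.05). Medians were 0.05 for the chains and -0.02 for all genes. The most negative values were those of Col4a5 (3.28 to 8.22, median 7.71, against 7.23 to 8.68 in air; -1.02 ± 0.48, adjusted p = 0.77), Col6a3 (-0.77 ± 0.43, adjusted p = 0.85), Col14a1 (-0.67 ± 0.35, adjusted p = 0.81), Col8a2 (-0.64 ± 0.21, adjusted p = 0.42) and Col5a2 (-0.63 ± 0.40, adjusted p = 0.86). The lowest Col4a5 arrays were those of SP-D-/-: it was 5.20, 6.67, 6.59 and 3.28 there and 7.60 to 8.22 in C57BL/6. In SP-D-/- the changes were -2.46 for Col4a5 (adjusted p = 0.15) and -1.40 for Col4a3 (adjusted p = 0.099), with 0 chains called (0.0996% of all genes; 12 chains at an unadjusted p under 0.05), and the spike measure was 11.44 against 10.55 in air. The fit on these 6 groups alone called 4 chains, all lower, among them Col1a1 (adjusted p = 0.0034), beside 4.33% of all genes. C57BL/6 and BALB/c had 0 called (0.0266% and 0.0133% of all genes).

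At Af 96 h with ozone, compared with ozone alone (17 against 12 arrays), 3 chains rose and 4 fell beside 13.7% of all genes called (7.61% higher, 6.05% lower); medians were 0.03 and 0.06. Col7a1, which anchors basement membranes to the stroma, rose from a median of 5.16 (4.73 to 5.71) to 5.77 (5.10 to 6.86), by 0.75 ± 0.18 (adjusted p = 0.0027). Col6a2 rose again, from 8.55 (8.06 to 9.0) to 9.33 (8.43 to 10.12), with 12 of 17 arrays above every ozone array (0.68 ± 0.21, adjusted p = 0.021; 0.60, adjusted p = 0.038, in the adjusted fit). Col5a1 rose by 0.57 ± 0.18 (adjusted p = 0.027), although the mean of its 3 probe sets gave -0.04. The chains that fell were Col18a1 (6.44 to 5.82 by median; -0.53 ± 0.15, adjusted p = 0.0076), Col13a1, a transmembrane chain (-0.47 ± 0.14, adjusted p = 0.015), Col4a1 (10.72 to 10.30; -0.60 ± 0.19, adjusted p = 0.019) and Col23a1 (-0.69 ± 0.24, adjusted p = 0.039). Col1a1 (-0.82 ± 0.31, adjusted p = 0.068), Col4a3 (-0.60 ± 0.23, adjusted p = 0.064), Col4a4 (-0.56 ± 0.22), Col4a2 (-0.88 ± 0.37), Col3a1 (-0.18 ± 0.28), Col4a5 (0.14 ± 0.47), Col4a6 (-0.29 ± 0.25), Col1a2 (0.23 ± 0.20), Col6a1 (0.06 ± 0.25) and Col6a3 (-0.66 ± 0.42) were not called. On the 84 arrays 3 rose and 5 fell (15.1% of all genes); the adjusted fit called 3 higher and 1 lower (11.7%). Without BALB/c ozone replicate 1 or 3, the pair that make up that group, 2 chains were called. Col5a1, Col6a2, Col7a1 and Col23a1 were called in the same direction here and at Af 24 h against air, 4 of 7 chains here and 4 of 20 there, in comparisons without a shared array. At Af 24 h 20 of 37 tested chains were called, beside 44.3% of all genes. An overlap of 4 in 7 is near that share and is a description only.

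The counts of called chains differed between the strains at this time point. C57BL/6 had 7 chains higher and 15 lower, in a comparison that called 36.4% of all genes (17.2% higher, 19.2% lower), led by Col19a1 (5.06 ± 1.20, SD, in 6 ozone arrays against 8.11 ± 1.11 in 5; 3.06 ± 0.85, adjusted p = 0.0043), Col6a3 (8.16 ± 0.54 against 5.28 ± 0.81; -2.88 ± 0.64, adjusted p = 0.00043), Col1a1 (9.19 ± 0.32 against 6.73 ± 0.85; -2.46 ± 0.47, adjusted p = 5.9e-05) and Col4a3 (-1.9 ± 0.34, adjusted p = 2.4e-05). SP-D-/- had only Col6a2 called (1.21, adjusted p = 0.036; 2.58% of all genes, 2.36% higher; adjusted p = 0.051 without the doubted arrays) and BALB/c none (0.0531%). The response differed between SP-D-/- and C57BL/6 in 19 chains, 12 more positive and 7 more negative in SP-D-/-, beside 27.4% of all genes (16.8% and 10.6%). In the same comparison the spike measure rose from 10.19 to 11.80 in C57BL/6 and went from 11.44 to 10.81 in SP-D-/-, and the mean of 8 endothelial markers was 8.75 against 6.72 in C57BL/6 and 8.64 against 8.31 in SP-D-/-. With the doubted arrays left out and the spike measure as covariate, C57BL/6 kept 1 chain higher (Col7a1, 0.90, adjusted p = 0.028) and 3 lower (Col4a3, -1.59, adjusted p = 0.0025; Col1a1, -1.56, adjusted p = 0.011; and Col13a1), and the difference between strains was called for 0 chains; the adjusted fit called 2 chains in C57BL/6, both lower (9% of all genes), and 0 for the difference (0%). The part of either measure in the strain difference was not tested further. Between BALB/c, with 2 arrays after ozone alone, and C57BL/6 the test of the difference in response called no chain. There Col6a3 stood at 2.26 ± 1.07 and Col1a1 at 1.87 ± 0.79 (both adjusted p = 0.69).

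At Af 168 h ozone was set against air in the allergic lung, and the chains that differed were all lower with ozone. Averaged over strains (14 against 15 arrays) 0 chains rose and 6 fell: Col1a1, Col3a1, Col14a1, Col6a1, Col6a2 and Col6a3, that is 3 of 4 tested collagen VI chains and 2 of 9 fibrillar ones. These are 16.2% of the tested chains, in a comparison that called 2.79% of all genes (1.68% lower). The median was -0.29 over the tested chains and -0.03 over all genes.

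Col6a2 was 8.74, 9.68, 8.81 and 10.14 in C57BL/6 with air and 7.37 to 9.40 (median 8.88) with ozone. In SP-D-/- it was 9.76, 9.17, 9.71, 9.92 and 8.20 with air and 7.12, 8.53, 8.51 and 5.47 with ozone, and in BALB/c 8.63 to 9.77 (median 9.16) against 8.70, 8.98, 8.63 and 8.46. The groups overlapped in C57BL/6 and BALB/c, and in SP-D-/- only the lowest air array lay within the ozone range. The change was -1.04 ± 0.20 (adjusted p = 0.0029). Col1a1 was 8.92, 8.99, 8.02 and 10.65 against 4.99 to 8.65 (median 7.91) in C57BL/6, 9.33, 9.11, 8.92, 8.41 and 8.27 against 7.94, 7.87, 7.90 and 6.18 in SP-D-/-, and 7.73 to 8.84 (median 8.34) against 7.72, 8.04, 7.68 and 7.35 in BALB/c. In SP-D-/- the 2 groups did not overlap; in all, Col1a1 changed by -1.33 ± 0.29 (adjusted p = 0.015). C57BL/6 replicates 5 and 6 with ozone (5.21 and 4.99) were the lowest arrays.

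Col3a1, the fibril chain of compliant tissue, was 10.68, 10.61, 8.98 and 11.51 with air and 7.17 to 10.17 (median 9.47) with ozone in C57BL/6. In SP-D-/- it was 11.17, 9.88, 10.76, 10.28 and 10.13 against 8.89, 9.46, 9.37 and 7.65, without overlap, and in BALB/c 10.09 to 10.84 (median 10.22) against 9.44, 10.09, 9.61 and 9.14. It changed by -1.18 ± 0.26 (adjusted p = 0.015), and its second probe set by -1.36 ± 0.36. Col6a3 was 7.15 to 8.96 (median 8.26) over 15 air arrays and 3.64 to 8.20 (median 7.19) over 14 ozone arrays (-1.63 ± 0.40, adjusted p = 0.019). Col6a1 was 7.59 to 9.95 (9.23) against 6.4 to 9.11 (8.61; -0.94 ± 0.24, adjusted p = 0.022). Col14a1, which links fibrils, was 4.79 to 7.55 (6.45) against 3.35 to 6.22 (5.51; -1.40 ± 0.32, adjusted p = 0.015), but its other probe sets gave -0.45 ± 0.27 and -0.03 ± 0.13. No ozone array lay above the highest air array in any of the 6.

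Col1a2, the partner of Col1a1, read by the 1 probe set that does not follow Col1a1, was not called (-0.10 ± 0.19, adjusted p = 0.76). The collagen IV chains lay below 0 without passing: Col4a5 -1.40 ± 0.44, Col4a2 -1.11 ± 0.35 (both adjusted p = 0.058), Col4a1 -0.53 ± 0.17 (adjusted p = 0.067), Col4a3 -0.54 ± 0.21, Col4a6 -0.39 ± 0.23 and Col4a4 -0.33 ± 0.21. The adjusted fit called 8 chains, all lower: the same 6 (adjusted p from 0.0021 to 0.014), Col4a5 (-1.09, adjusted p = 0.026) and Col4a2 (-0.91, adjusted p = 0.044), beside 3.65% of all genes. The same 6 were called without the doubted arrays, beside 0.889% of all genes. The call depends on the spread shared with the other groups: a fit on these 6 groups alone called 0 of 15065 genes, with adjusted p from 0.094 to 0.19 for the 6 chains. Leaving out 1 array gave between 1 and 11 chains: 1 without SP-D-/- Af 168 h ozone replicate 6, 2 without BALB/c Af 168 h ozone replicate 6, 10 without C57BL/6 Af 168 h air replicate 4, C57BL/6 Af 168 h ozone replicate 1, 2 or 3, or SP-D-/- Af 168 h ozone replicate 4, and 11 without SP-D-/- Af 168 h ozone replicate 3. Col6a2 passed in all 29 such fits.

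**Figure D3:**
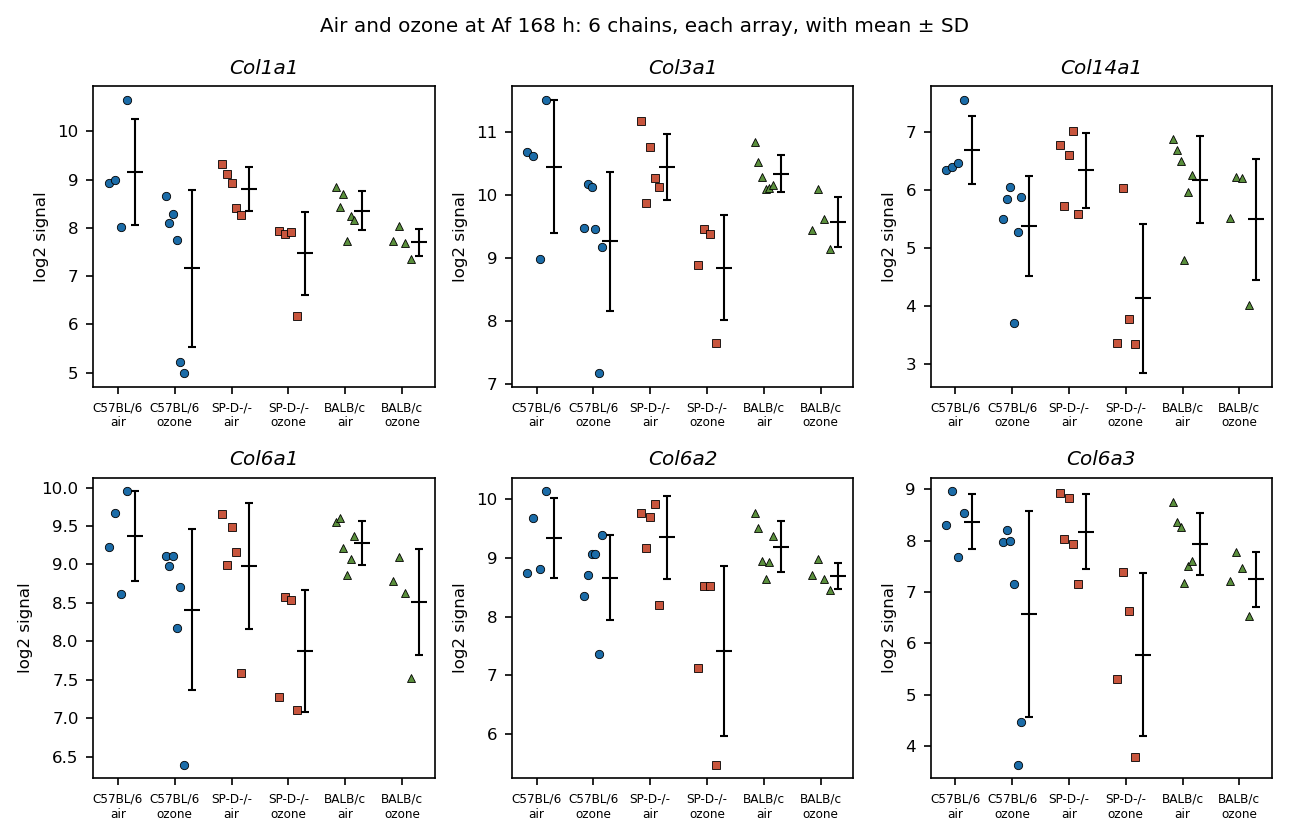
Log2 signal of Col1a1, Col3a1, Col14a1, Col6a1, Col6a2 and Col6a3 on each array at Af 168 h with air and with ozone, by strain, with group mean and SD; axes differ between panels and do not start at 0. Ozone arrays lie lower on average in each strain, with the widest spread in C57BL/6 and SP-D-/-, where single arrays reach 4.99 for Col1a1 and 5.47 for Col6a2.

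Within strains, SP-D-/- had Col6a2 (-1.94 ± 0.35, adjusted p = 0.0038) and Col14a1 (-2.20 ± 0.57, adjusted p = 0.046) called, both lower, beside 0.604% of all genes (0.385% lower). C57BL/6 had none (0.0597% of all genes; Col1a1 -1.99 ± 0.50, adjusted p = 0.11), nor had BALB/c (0.0199%; Col3a1 -0.76 ± 0.45, adjusted p = 0.72). The C57BL/6 air and ozone groups share 4 replicate numbers, which the labels do not describe as pairs. With arrays of the same number taken as a block, 0 chains were called there too (0.345% of all genes; 9 chains at an unadjusted p under 0.05; Col1a1 -1.87 ± 0.52, adjusted p = 0.085; Col6a2 -0.29 ± 0.35, adjusted p = 0.71). In SP-D-/- the adjusted fit called Col6a2, Col14a1 and Col6a3, all lower (1.54% of all genes). The difference in this response was called for 0 chains between SP-D-/- and C57BL/6 (0.0398% of all genes) and 0 between BALB/c and C57BL/6 (0%). Markers of other tissue moved with the ozone groups here. The mean of 8 skeletal muscle markers was 7.28 (6.01 to 8.77) with ozone against 4.62 (4.42 to 4.81) with air in SP-D-/-, 5.8 (4.34 to 8.75) against 4.17 (3.78 to 4.50) in BALB/c and 4.53 (4.24 to 4.93) against 4.87 (4.51 to 5.66) in C57BL/6. The mean of 8 endothelial markers was 7.06 against 8.23, 8.09 against 8.6 and 7.50 against 8.25 in the same order. Their part in the lower collagen signal was not tested. The spike measure was 11.20 with ozone and 10.96 with air, and the actin measure 2.71 and 2.66.

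Between the 2 ozone groups after Af, the 168 h arrays (14) had 3 chains lower than the 96 h arrays (17) and none higher, beside 4.93% of all genes (3.26% lower); both ozone groups had been compared with other groups above. Col6a2 was 5.47 to 9.40 (median 8.58) against 8.43 to 10.12 (9.33), a change of -1.04 ± 0.19 (adjusted p = 0.00069). Col6a1 was 6.4 to 9.11 (8.61) against 8.11 to 10.15 (9.59), -1.06 ± 0.23 (adjusted p = 0.0031). Col8a1, the partner of Col8a2, was 4.05 to 6.60 (6.15) against 4.84 to 7.85 (6.92), -1.01 ± 0.28 (adjusted p = 0.02), but was not called without the doubted arrays (adjusted p = 0.086) or over the mean of its probe sets (adjusted p = 0.17). Col1a1, Col1a2, Col3a1, the collagen IV chains and Col6a3 were not called. Without the doubted arrays 2 were lower (3.67% of all genes), and the adjusted fit called 7 lower and 1 higher (11.5%). In SP-D-/- 4 chains were higher and 8 lower at 168 h (15% of all genes, 5.68% higher and 9.35% lower), led by Col4a5 (-2.75 ± 0.76, adjusted p = 0.016), Col6a2 (-2.30 ± 0.34, adjusted p = 4.4e-05), Col6a3 (-2.29 ± 0.68, adjusted p = 0.022) and Col14a1 (-2.16 ± 0.55, adjusted p = 0.011); the adjusted fit called 5, all lower, with Col6a2 and Col14a1 among them (4.89% of all genes). No chain passed in C57BL/6 (1.82% of all genes) or BALB/c (0.0465%). Skeletal muscle markers were also higher at 168 h with ozone, 6 of 8 called; their part was not tested.

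BALB/c and C57BL/6 differed in 1 chain averaged over the exposures. Col4a6, whose product joins Col4a5 in some basement membranes, was lower in BALB/c than in C57BL/6 by 1.5 ± 0.17 on the log2 scale over the 6 exposures (adjusted p = 1.1e-10; 4.47% of all genes called, 2.75% lower). It lay between 3.23 and 4.51 (median 3.69) over 28 BALB/c arrays and between 3.22 and 6.51 (median 5.50) over 31 C57BL/6 arrays. In air the groups did not overlap: BALB/c gave 3.60, 3.71, 3.86, 3.52 and 3.85, C57BL/6 gave 5.45 to 6.41, and SP-D-/- gave 5.10 to 6.52. The BALB/c mean was 3.71 ± 0.15 (SD, n = 5) in air and between 3.49 and 3.91 in the other groups, all under the level of 4.45 that served as the signal filter. Col4a6 passed that filter through the other strains, so the size of the difference rests on BALB/c signal under the filter level. The log2 difference and its p-value describe signal against that low level, and no fold is given. C57BL/6 means went from 5.89 ± 0.38 in air to 4.10 ± 0.57 at Af 24 h and 5.67 ± 0.60 at Af 168 h, and SP-D-/- means from 6.00 ± 0.56 to 4.75 ± 0.83 and 5.08 ± 0.90. The strain difference was called in air (0.511% of all genes, 0.272% lower) and at Af 168 h with air (0.597%, 0.352% lower) taken singly. Without the doubted arrays the strain difference in Col4a6 was -1.62 (adjusted p = 1.5e-11), with the same limit. Its 2 probe sets correlated over the arrays (r = 0.70), a value that includes the differences between strains and groups.

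SP-D-/- and C57BL/6 differed in 0 of 37 chains averaged over the exposures (30 and 31 arrays; limma called 0.199% of all genes, and 2 chains had an unadjusted p under 0.05). The adjusted fit called Col8a1 higher in SP-D-/- (0.61, adjusted p = 0.0074), beside 2.89% of all genes. Singly, the groups in air, at Af 24 h and, with either gas, at Af 168 h called 0 chains (0.0664%, 0.0863%, and 0.0199% with air or 0.504% with ozone, of all genes). After ozone, in a comparison whose adjusted fit called 0 chains (0.186% of all genes), Col4a3 was lower in SP-D-/- (6.26, 6.65, 7.90 and 4.16) than in C57BL/6 (7.61 to 8.57, median 7.93), by 1.74 ± 0.37 (adjusted p = 0.013; 0.797% of all genes, 0.458% lower). At Af 96 h with ozone 9 chains were higher and 3 lower in SP-D-/- (16.2% of all genes, 10.2% higher and 5.95% lower), led by Col6a3 (2.80 ± 0.64, adjusted p = 0.0042), Col19a1 (-2.44 ± 0.85, adjusted p = 0.04), Col1a1 (2.07 ± 0.47, adjusted p = 0.0043) and Col14a1 (2.05 ± 0.52, adjusted p = 0.0085), at spike measures of 10.81 and 11.80; the adjusted fit called only Col13a1 (0.80, adjusted p = 0.044; 2.92% of all genes). BALB/c against C57BL/6 at that point had Col6a3 (2.07 ± 0.64, adjusted p = 0.037) and Col1a1 (1.74 ± 0.47, adjusted p = 0.016) higher, beside 6.26% of all genes (3.77% higher), and both kept their call in the adjusted fit (1.58 and 1.5), with 2 further chains and 12.3% of all genes.

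Beyond the groups, some chains rose and fell together from array to array. Over residuals from the group means on 89 arrays, Col4a1 and Col4a2, which share a promoter region and assemble together, had the highest of 666 pairwise correlations (r = 0.89). Col5a2 and Col6a3 (r = 0.87) and Col3a1 and Col6a3 (r = 0.84) followed closely, while the median over pairs was 0.00. For Col1a1 and Col1a2 r was 0.03. For Col4a3 and Col4a4 it was 0.33 and for Col4a5 and Col4a6 0.45, although these pairs too lie side by side on their chromosomes and assemble together. These arrays share labelling depth: Col6a3, Col14a1, Col4a2, Col4a1 and Col3a1 fell with the spike measure (r = -0.72, -0.65, -0.60, -0.60 and -0.59). Probe sets of the same gene were compared on the log2 signal of the arrays itself, with group differences left in. Other probe sets followed the chosen one for Col6a2 (r = 0.95), Col4a1 (0.80), Col3a1 (0.78), Col4a3 (0.73) and Col5a2 (0.73). They did not for Col4a4 (0.00), Col5a1 (-0.08 and 0.06), Col8a1 (-0.42 and 0.05) or Col5a3 (-0.18), whose changes therefore belong to 1 probe set.

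**Figure D4:**
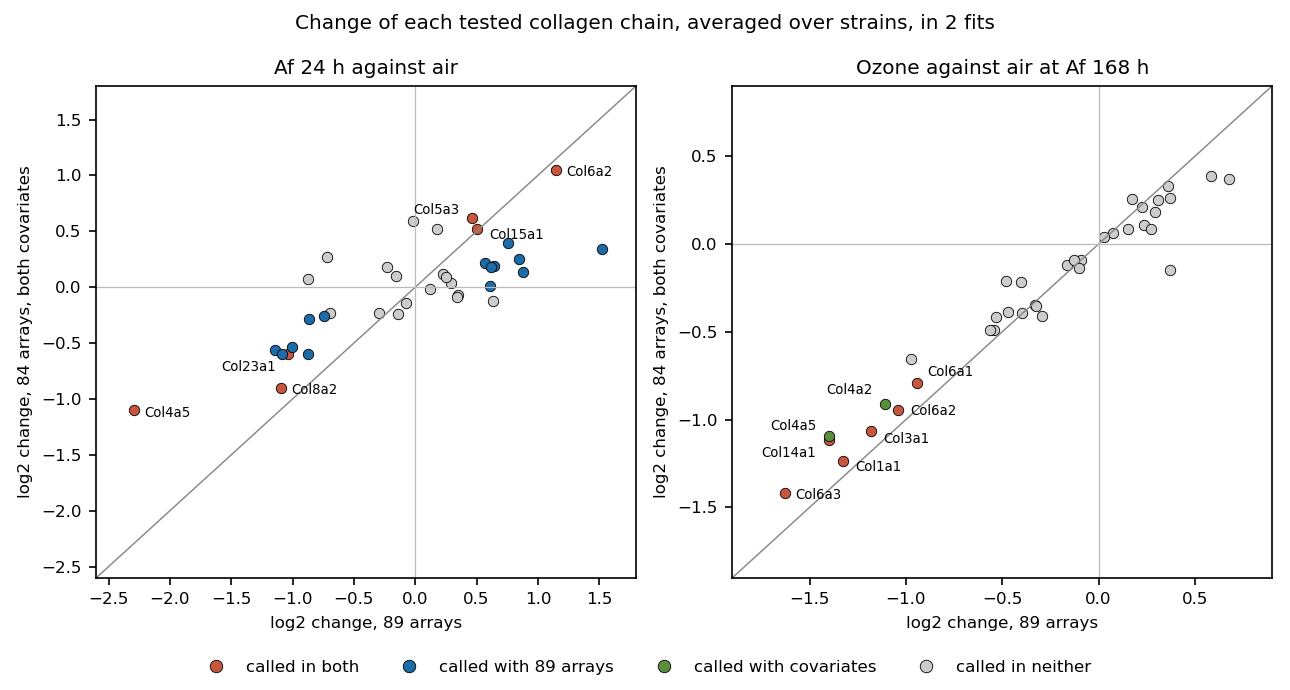
Log2 change of each of the 37 tested chains in the fit on 89 arrays (x axis) and in the fit on 84 arrays with both covariates (y axis), for Af 24 h against air (left) and ozone against air at Af 168 h (right); the line marks equal values and colour marks where a chain was called. At Af 24 h 6 of the 20 called chains are called in both fits, and at Af 168 h all 6 are, with 2 more in the adjusted fit.

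The enzymes, partners and receptors of collagen were read from lists of genes. At Af 24 h, where 20.7% of all genes were higher and 23.5% lower, the fibril-associated proteoglycans, which space fibrils, had 5 of 6 lower and none higher (median -1.30): Dcn (-1.88 ± 0.23, adjusted p = 6.9e-10), Prelp (-1.74 ± 0.31) and Ogn (-1.61 ± 0.27) led. Basement membrane partners had 1 of 13 higher, the perlecan gene Hspg2, and 7 lower (median -0.57), led by the laminin chain Lama3 (-1.80 ± 0.33), the cross-linking peroxidase Pxdn (-1.40 ± 0.27) and Npnt (-1.24 ± 0.30). Processing and cross-linking genes had 3 of 10 in each direction; Lox (-1.54 ± 0.42), which starts the cross-links, Pcolce2 (-1.48 ± 0.30) and Sparc (-1.02 ± 0.16) fell. Biosynthesis genes had 1 of 15 higher and 4 lower, led by the prolyl hydroxylases P3h3 (-0.94 ± 0.20), P4hb (-0.70 ± 0.21) and P3h2 (-0.68 ± 0.20). Breakdown genes had 2 of 9 higher and 3 lower: the inhibitor Timp1 rose by 2.76 ± 0.36 (adjusted p = 5.1e-09), and Mmp2 (-1.26 ± 0.36) and Timp3 (-1.21 ± 0.25) fell. Near the 44.3% of all genes called in either direction, receptors had 3 of 7 lower (Itga1, Ddr2 and Itgb1) and TGF-beta response genes 5 of 11 lower, led by Postn (-1.47 ± 0.30), Tgfb3 (-1.39 ± 0.33) and Smad7 (-1.34 ± 0.28). In the adjusted fit, which called 12.4% of all genes, proteoglycans had 3 of 6 lower, basement membrane partners 1 higher and 2 lower, and receptors and TGF-beta response genes none called.

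At Af 168 h, where 6.86% of all genes were higher and 7.15% lower, 3 of 6 proteoglycans were lower (Dcn, -1.41 ± 0.23, Prelp and Ogn), 4 of 13 basement membrane partners were lower and Hspg2 higher (0.86 ± 0.16), and the collagenolytic protease Ctsk rose by 1.25 ± 0.24 (adjusted p = 8.7e-05). The collagen uptake receptor Mrc2 rose by 0.86 ± 0.21, the collagen glycosyltransferase Colgalt1 by 0.60 ± 0.15, and P3h3 fell. Counts at Af 96 h with ozone (7.61% of all genes higher, 6.05% lower) were 4 of 6 proteoglycans lower, led by Prelp (-1.94 ± 0.35), 3 of 13 basement membrane partners lower and 1 higher, 2 of 15 biosynthesis, 2 of 10 processing and 3 of 11 TGF-beta response genes lower, with Ctsk higher by 1.28 ± 0.26. With ozone at Af 168 h, where 1.68% of all genes were lower, 1 of 13 basement membrane partners (Lamc1, -0.87 ± 0.21), 1 of 6 proteoglycans (Bgn, -0.71 ± 0.19), 2 of 9 breakdown genes (Mmp2, -1.44 ± 0.38, and Timp2, -0.88 ± 0.21), 2 of 11 TGF-beta response genes (Postn, -1.21 ± 0.31, and Fn1, -0.90 ± 0.20), 1 of 7 receptors (Ddr2, -1.07 ± 0.32) and 1 of 15 biosynthesis genes (Colgalt1, -0.57 ± 0.16) were lower. No gene of these lists was higher there, and no processing gene was called.

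Markers of the cells that could make these chains moved too. At Af 24 h, with 20.7% of all genes higher and 23.5% lower, 6 of 8 smooth muscle and pericyte markers were lower and none higher (median -0.85), led by Actg2 (-2.33 ± 0.38), Myh11 (-2.29 ± 0.25) and Cnn1 (-1.85 ± 0.27); 6 of 8 endothelial markers were lower (median -1.02), led by Tek (-1.93 ± 0.35). Of 10 fibroblast markers 2 were higher and 5 lower, and of 7 cartilage markers 3 were higher and 1 lower, Sox9 rising by 2.00 ± 0.35 and Chad falling by 1.83 ± 0.28. Alveolar type 1 and type 2 markers had 3 of 6 and 2 of 4 lower, airway markers 1 of 6 higher and 2 lower, mesothelial markers 1 of 5 higher, leukocyte markers 1 of 7 in each direction, and skeletal muscle markers 1 of 8 lower; these small counts are a description beside that share. In the adjusted fit (12.4% of all genes) smooth muscle markers had 3 of 8 lower, endothelial markers 1 of 8 higher and fibroblast markers none called. At Af 168 h (7.15% of all genes lower) smooth muscle and endothelial markers had 3 and 5 of 8 lower, and at Af 96 h with ozone (6.05%) 3 and 6 of 8, with the pericyte gene Rgs5 higher there. With ozone at Af 168 h (2.79% of all genes called) 2 of 10 fibroblast markers (Mfap4, -1.23 ± 0.35, and Dpt, -0.88 ± 0.26), 2 of 8 endothelial, 1 of 8 smooth muscle and 2 of 7 leukocyte markers were lower and 1 skeletal muscle marker, Actn3, higher (1.40 ± 0.38). The part of cell composition in the collagen changes was not tested.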

How the data were processed

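RNA from 89 lungs was read on 1-colour arrays, and the deposited values of 45141 probe sets were used. The deposited values are on the log2 scale (1.86 to 13.54) with the same median, 4.90, on every array; the normalization software is not given in the sources used here. Of the probe sets 28898 carry 1 gene symbol, 551 several and 15692 none here; each gene was taken by its probe set with the highest mean. Genes above the 40th percentile (log2 4.45) on at least 4 arrays were tested. Means of 18 groups were fitted with limma 3.58.1 (R 4.3.3), with two-sided moderated tests, Benjamini-Hochberg adjustment over 15065 genes and a threshold of 0.05, for 52 comparisons; effects averaged over strains weight strains equally. The number of arrays limits the precision. The script was tested on simulated data. The collagen chains and gene lists were chosen with earlier results of these data known. The 8 largest called changes per averaged comparison and the 4 largest per strain were named, with the main fibrillar, IV and VI chains. Alternatives covered probe set choice, filter, cyclic loess, replicate block, groups fitted, single arrays and, chosen after seeing the data, the doubted arrays and the spike and actin covariates. Of 19 comparisons with 3 or more shared replicate numbers, 1 (the C57BL/6 gas comparison at Af 168 h) had every pair correlated above 0.1, so there numbers were taken to pair arrays and a fit with the pairs as a block is given beside the result; elsewhere they were not.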

Additional observations from a re-analysis of the deposited data

Results flagged for a closer look

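Of 187 combinations of 11 chains and 17 groups, 18 held an array far from the others of its group; chance gives about 1 in 20. Some chains correlate over the same arrays and some arrays recur below, so the combinations are not independent. The share over all genes is not given. At Af 168 h with ozone these were Col1a1 in SP-D-/- replicate 6 (6.18, the next array 7.87), Col3a1 in C57BL/6 replicate 5 (7.17, next 9.17), Col6a1 in C57BL/6 replicate 6 (6.4, next 8.18), Col14a1 in C57BL/6 replicate 4 (3.70, next 5.26) and, as the highest, in SP-D-/- replicate 3 (6.03, next 3.77), and Col4a3 in SP-D-/- replicate 1 (4.89, next 6.53).

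C57BL/6 ozone replicate 5 was low for Col6a3 (7.11, next 8.10), Col14a1 (4.35, next 5.89) and Col4a6 (4.87, next 5.83). BALB/c Af 96 h ozone replicate 1 was low for Col6a3 (5.16, next 7.43) and Col4a5 (4.81, next 7.15). Single lows were Col6a1 in SP-D-/- air replicate 3 (9.07, next 9.41) and in the doubted BALB/c Af 24 h air replicate 4 (7.00, next 9.50), Col6a3 in BALB/c air replicate 1 (7.76, next 8.22), Col14a1 in SP-D-/- Af 24 h air replicate 1 (4.47, next 6.04) and Col4a4 in SP-D-/- Af 96 h ozone replicate 4 (6.91, next 7.92). Single highs were Col14a1 in C57BL/6 Af 168 h air replicate 6 (7.55, next 6.45) and Col8a2 in SP-D-/- Af 168 h air replicate 3 (7.47, next 5.19).

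The response to Af 96 h with ozone against ozone differed between SP-D-/- and C57BL/6 in 19 chains by the interaction test, beside the share of all genes given above. The log2 difference, SP-D-/- minus C57BL/6, was 4.40 for Col6a3, 4.38 for Col4a5, -3.78 for Col19a1 and 3.24 for Col5a2. With the doubted arrays left out and the spike measure as covariate no chain kept its call. The adjusted fit called none either.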

How the results depend on the processing

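Counts of called chains moved by over 1.5 times as follows. Fitting only the groups compared gave 4 for ozone (0 with all groups), 13 for Af 168 h (6), 0 for ozone at Af 168 h (6) and 1 for Af 168 h against Af 24 h (3). The share of all genes called moved too, from 0.119% to 4.33% for ozone and from 14% to 32.3% for Af 168 h. The actin covariate gave 9 for Af 24 h (20), 1 for Af 168 h and 2 for Af 96 h (7). With it the share of all genes went from 44.3% to 13.6% at Af 24 h and from 14% to 3.27% at Af 168 h. The spike covariate gave 3 for Af 168 h (15.6% of all genes), 9 for Af 168 h ozone against Af 96 h ozone (3), 1 for SP-D-/- (0) and 2 for BALB/c against C57BL/6 (1). Without the doubted arrays counts were 5 for Af 168 h against Af 24 h and 3 for BALB/c; cyclic loess gave 5 for the former and no filter 3 for the latter.

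Without the doubted arrays and with the spike covariate, counts were 12 for Af 24 h (28.5% of all genes), 5 for Af 168 h against Af 24 h, 8 for Af 168 h ozone against Af 96 h ozone, 1 for SP-D-/- and 3 for BALB/c. With the actin covariate added they were 6 (12.4% of all genes), 0 (Af 168 h, 4.8% of all genes), 4 (Af 96 h), 5, 8, 1 and 3. With the spike covariate and the replicate block they were 13 (29.2% of all genes), 4 (Af 96 h), 5, 5, 1 and 8. The cause of these moves was not tested.

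Col11a1 at Af 24 h reversed to -0.0295 without the doubted arrays and with the spike covariate and to -0.0304 with the replicate block added, and Col5a1 at Af 96 h to -0.0439 over all its probe sets. The replicate block alone gave 22 chains at Af 24 h against 20 (44.9% and 44.3% of all genes) and kept the 9 averaged counts within 1.5 times. Leaving out 1 array gave 17 to 26 chains for Af 24 h, 2 to 7 for Af 168 h, 2 to 8 for Af 96 h, 1 to 11 for ozone at Af 168 h, 1 to 4 for Af 168 h against Af 24 h, 2 to 4 for Af 168 h ozone against Af 96 h ozone, 0 for ozone and SP-D-/- and 1 for BALB/c. The share of all genes in each of these fits is not given, so the ranges describe stability only. Low signal limits Col4a6 in BALB/c.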
